A study of Drosophila melanogaster with 12 samples.

Results

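The nuclear-encoded subunits of the mitochondrial respiratory chain were followed through the depletion of ribosomal RNA from Drosophila larval RNA. Members were all genes whose symbol begins with ND-, UQCR-, COX and a digit, ATPsyn, SdhA to SdhD or Cyt-c and that are listed in both deposited count tables. There were 84 such genes, of 17806 genes in the Kallisto table and 17807 in the HTSeq table without spike-ins. The prefix gave the complex. It placed 40 genes in complex I (ND-), 6 in complex II (Sdh), 10 in complex III (UQCR- and Cyt-c1), 2 at cytochrome c, 11 in complex IV (COX) and 15 in complex V (ATPsyn). In all, 19 symbols carry an L after the symbol of another subunit and are referred to as -L paralogs, the type commonly expressed in testis. The other 65 are referred to as canonical members.

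Total RNA came from wild-type Oregon-R animals, as 3 pools of 40 wandering larvae of the third instar. RNA was either left untreated (input) or passed over biotinylated antisense oligonucleotides and streptavidin beads that remove 18S and 28S rRNA (depleted). Both kinds of RNA were made into random-primed libraries (NEBNext) and into poly(A)-primed libraries (QuantSeq, which reads the 3′ end of polyadenylated RNA), giving 4 groups of 3 libraries. The study states that every RNA sample was split into an input and a depleted library and that both primings used the same material, so libraries of equal number were also compared as pairs (the replicate block). Animals differed in no genotype or agent, and depletion and priming were the variables of the design. Library preparation differed with them. Poly(A)-primed libraries were made from less RNA after depletion than before it, and the primings used different kits and numbers of PCR cycles. These differences cannot be told apart from depletion and priming. Whole larvae were used, in which fewer cells of a type and less RNA per cell cannot be told apart.

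In background, the respiratory chain moves electrons from NADH (complex I) and succinate (complex II) through complex III and the soluble carrier cytochrome c to oxygen (complex IV), and the proton gradient built on the way drives ATP synthase (complex V). Most subunits are encoded in the nucleus, translated in the cytosol and imported, and a small core is encoded by mitochondrial DNA. Drosophila has second copies of several subunits whose expression is concentrated in the male germ line, where mitochondria are remodelled during sperm formation.

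Depth set what could be seen. Input libraries made by random priming held from 428039 to 596423 estimated counts outside rRNA, of which the 84 members held from 1812 to 2632 in a library. In the random-primed depleted libraries the members held from 43817 to 63194 counts. By HTSeq, poly(A)-primed libraries held from 29854 to 53460 member counts before depletion and from 23817 to 43165 after it. Libraries numbered 3 stood apart from numbers 1 and 2 in all 4 groups, as described with the paralogs, and each count of called members is also given without them. All 9 genes of wandering larvae (glue, larval serum and fat body proteins) were abundant in every library, between 51878 and 163771 summed counts per 1000000 (CPM).

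Respiratory chain RNAs ranked among the more abundant messages of the larva. Their level per length was taken in the random-primed depleted libraries, as spliced estimated counts per kilobase of the longest transcript, scaled to 1000000 over 13883 protein-coding genes. On this scale the 84 members summed to 9365 ± 88.9 per 1000000 (SD, n = 3). Of the 65 canonical members, 22 were among the 1000 highest protein-coding genes and 54 among the 2000 highest. Their median level was 88.7, against 12.4 for the 13104 protein-coding genes above 0 and 6.45 for the 19 -L paralogs.

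**Figure D1:**
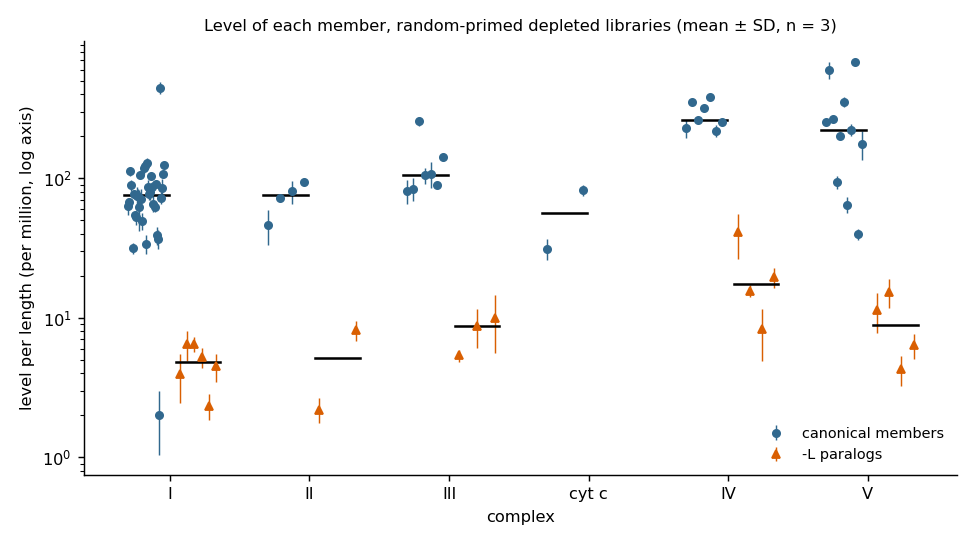
Level per length of each member (y axis, spliced counts per kilobase, scaled to 1000000, log scale) by complex (x axis) in the random-primed depleted libraries. Circles are canonical members, triangles are -L paralogs, vertical lines are SD (n = 3) and horizontal bars are medians. The canonical medians of complexes IV and V, 261 and 223, lie above those of the other complexes, and every -L paralog lies below 41.

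Canonical subunits of complex IV had the highest median level, 261 per 1000000, and those of complex V followed with 223. The medians computed in each library ran from 256 to 268 for complex IV and from 207 to 238 for complex V, so the order of these 2 complexes held in every library. Complex III came next with a median of 105, followed by complexes II and I with 76.1 and 75.4. Complexes II and I did not differ beyond their spread, and their order turned with the deposited TPM as the level (72.7 and 82.4). The 2 cytochrome c genes had a median of 56.6.

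Within complex I, 34 canonical subunits were measured. ND-MLRQ, placed here by its prefix although its mammalian counterpart NDUFA4 is found in complex IV, was the highest. It was at 443, 400 and 491 per 1000000 in the 3 libraries. The next subunit was ND-B12, an accessory subunit, at 129 ± 10.7. By the deposited TPM, ND-AGGG at 170.8 and ND-15 at 149.6 were above ND-B12 at 139.2. At the low end, ND-B8, the counterpart of the accessory subunit NDUFA2, had a level of 2.32, 2.78 and 0.918. It was far below ND-19 at 31.5 ± 2.97, so that the range from highest to lowest was 221-fold with ND-B8 and 14.1-fold without it. HTSeq counts of ND-B8 in the poly(A)-primed libraries were also low, from 14 to 26.

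Complex II was more even. SdhA, the flavoprotein that oxidises succinate, was the lowest of its 4 canonical subunits at 46.1 ± 13.03. SdhD, a membrane anchor, was the highest at 94.5 ± 5.77, which was 2.05 times SdhA. In complex III, UQCR-14 (255 ± 17.2), a small subunit, was the highest of 7 and Cyt-c1 (81.3 ± 16.1), the subunit that carries the c-type haem, was the lowest.

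Complex IV had the narrowest range of the complexes, 1.77-fold among 7 canonical subunits. COX7A, a small membrane subunit, was the highest at 385 ± 17.5, and COX7C, another small subunit, was the lowest at 218 ± 21.9. This order turned with the deposited TPM, where COX7C was at 384 ± 39.1 and COX7A at 342. In complex V, ATPsynbeta, the catalytic subunit, was the highest of all members at 678 ± 12.4, followed by ATPsynC, which forms the rotating ring, at 599 ± 82.6. Their order also turned with the deposited TPM, where ATPsynC was at 909.1 ± 119.9 and ATPsynbeta at 712.5 ± 14.47. ATPsyndelta of the central stalk was the lowest at 39.6 ± 3.71. That value rests on a longest transcript of 3817 nucleotides, and by the deposited TPM ATPsyndelta was at 166 and ATPsynG was the lowest at 86.2, a level measured after its own fall with depletion.

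Genes of the chain were compact. The longest transcript of a canonical member had a median length of 819 nucleotides and that of an -L paralog 753, against 1699 over all protein-coding genes. Introns took little of the signal of most canonical members. Of the 64 with at least 50 counts per depleted random-primed library on average, the median intronic share was 0.471%, against 0.957% over 9164 protein-coding genes with the same minimum, and 6 had a share above 5%. The highest was ND-15, at 11.5%. Its locus holds other genes on both strands, whose part in this signal was not tested.

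No -L paralog came near its canonical partner. The 19 paralogs have 18 partners, since ND-51L1 and ND-51L2 share ND-51. Partners of COX6AL and ATPsynepsilonL are levy and sun, subunits known under other symbols. A total of 15 pairs lie on different chromosome arms, 5 canonical partners lie on X, and SdhBL is the 1 paralog on X. Single-exon genes made up 8 of the 19 paralogs, none of the 65 canonical members and 16.4% of all protein-coding genes. In 6 paralogs (ATPsynCF6L, COX6AL, ND-51L1, ND-51L2, SdhAL and UQCR-11L) the gene lies inside another gene on the same strand, so their counts are uncertain.

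By level per length in the random-primed depleted libraries, the paralog made up a median of 5.49% of the sum of paralog and partner, from 0.626% to 19.1%, and 15 of the 19 shares were under 10%. ATPsynbetaL was the smallest, at 0.724%, 0.442% and 0.712% in the 3 libraries, with ATPsynbeta 159 times higher. The largest in these libraries was ATPsynGL, at 14.9%, 22.04% and 20.3%. Its partner ATPsynG fell with depletion, and before depletion the ATPsynGL share was 5.35% ± 0.384 of poly(A)-primed counts and 6.51% ± 7.27 in the random-primed libraries. In the poly(A)-primed input the largest share was that of COX7AL, 13.8% ± 1.01. In the depleted random-primed libraries COX4L, a paralog of the subunit that regulates cytochrome oxidase, followed with 14.3%, 9.51% and 22.9%, and it was also the most abundant paralog at a level of 40.9 ± 14.6. Shares above 10% were also found for ND-24L (11.1% ± 3.51) and SdhBL (10.1% ± 1.57).

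The other shares in complex I were 6.87% ± 1.08 for ND-51L1, 5.78% ± 0.676 for ND-49L, 5.49% ± 0.732 for ND-B14.5AL, 4.84% ± 1.78 for ND-20L and 3.30% ± 1.22 for ND-51L2. In complex II, SdhAL reached 4.64% ± 0.681. Complex III paralogs held 9.29% ± 1.28 (UQCR-11L), 6.27% ± 0.769 (Cyt-c1L) and 3.71% ± 1.33 (UQCR-14L). In complex IV the values were 5.66% ± 0.524 for COX5BL, which lies 123 bp from COX5B, 4.81% ± 0.562 for COX7AL and 2.13% ± 0.934 for COX6AL. In complex V, ATPsynCF6L held 4.08% ± 1.23 and ATPsynepsilonL 1.95% ± 0.300. Each rests on between 54 and 469 estimated counts over the 3 depleted libraries, but on 0 to 17 over the 3 input libraries, too few to compare single pairs there.

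Cytochrome c is encoded by a neighbouring pair on 2L, 297 bp apart. Cyt-c-p, the form used in respiration in somatic tissue, was at 74.0, 85.0 and 86.8 per 1000000. Cyt-c-d, known for its role in caspase activation as spermatids individualise, was at 25.9, 31.2 and 36.6. Cyt-c-d thus made up 27.5% ± 1.94 of the pair by level per length, and 35.9% ± 8.73 and 30.7% ± 4.43 of the pair's poly(A)-primed counts before and after depletion.

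Summed over the 19 pairs, the paralog share differed more between libraries of a group than between the means before and after depletion. It was 3.80%, 3.39% and 4.06% in poly(A)-primed input libraries 1, 2 and 3 and 4.25%, 3.36% and 4.50% in the depleted ones, from counts. By level per length it was 4.18%, 5.06% and 6.32% in the random-primed input and 4.70%, 4.18% and 6.13% in the random-primed depleted libraries. Library 3 had the highest pooled share in each of the 4 groups, but single paralogs varied. By scaled counts, library 3 was the highest for 8 and the lowest for 7 of 19 paralogs in the poly(A)-primed input. These numbers were 9 and 4 of 19 in the poly(A)-primed depleted libraries. In the random-primed libraries they were 10 and 5 of 18 before depletion and 15 and 4 of 19 after it.

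The same libraries differed in markers of other tissues. A list of 14 spermatocyte and testis genes summed highest in library 3 of every group, at 126 TMM-scaled CPM against 99.6 and 89.8 in the random-primed depleted group. Here TMM is a scaling that sets the typical gene to no change. The sum does not hold for each gene of the list. In the random-primed depleted libraries topi had 70, 56 and 31 estimated counts, and Mst87F, a more abundant gene, had 278, 251 and 275. These libraries held 12422418, 12077781 and 9037947 counts outside rRNA. All 14 testis genes had counts in each group, and in the random-primed depleted group all 14 had counts in each library, with means from 0.570 to 21.5 CPM. A list of 10 muscle genes summed lowest in library 3 of every group, at 6124 against 9630 and 10770 in the same group. The part of testis or muscle RNA in the paralog shares was not tested, and no separated testis was among the samples.

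**Figure D2:**
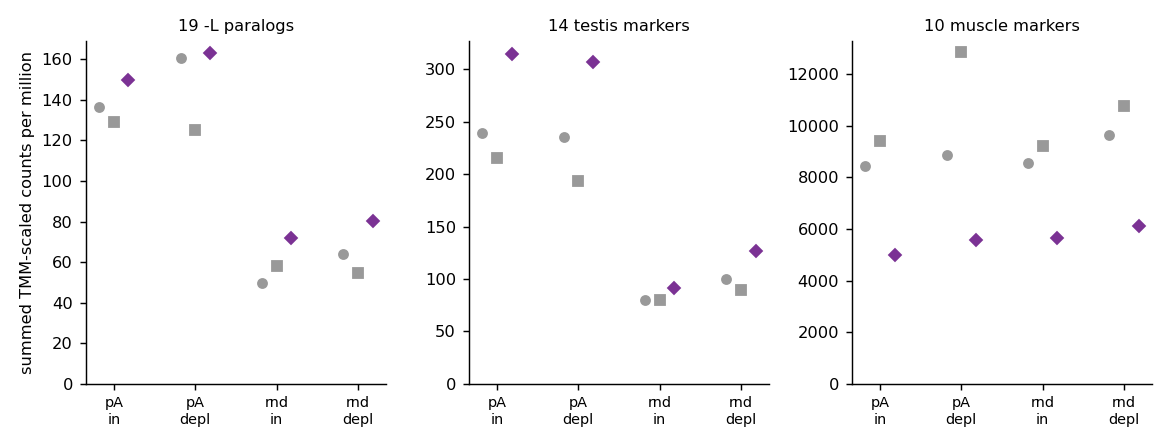
Summed TMM-scaled CPM (y axis) of the 19 -L paralogs, 14 testis markers and 10 muscle markers in each library. Groups on the x axis are poly(A)-primed (pA) and random-primed (rnd) input (in) and depleted (depl); circles, squares and diamonds are libraries 1, 2 and 3. In every group the diamond is the highest point for paralogs (80.4 against 64.0 and 54.6 in the random-primed depleted group) and testis markers and the lowest for muscle markers.

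These sums and the values of the next sentences were scaled over all 12 libraries together, while values of single genes elsewhere were scaled within a priming. Library 3 was the lowest within each of the 4 groups for 8 of 81 members, against 10.2% of 11175 genes, and the highest for 5, against 10.8%, so both shares of members were at or below the background. Among the 8 were UQCR-C1, a core protein of complex III, with 78.4, 87.1 and 59.5 CPM in the random-primed depleted libraries, and ATPsyngamma of the central stalk, with 112, 121 and 80.8. COX4L and ATPsynGL were among the 5.

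Whether depletion altered the measurement of these genes was asked first in the poly(A)-primed libraries, where input depth was sufficient for most of them. ATPsynG, ND-B22 and ATPsynD were lower after depletion and COX5B and ATPsynCF6L were higher, out of 79 members that passed the filter on low counts. The 3 lower members compare with 3.85% of all 9530 genes tested that were called lower, and the 2 higher members with 0.997%. Calls are those with an adjusted p under 0.05 in edgeR's quasi-likelihood test on HTSeq counts with Benjamini-Hochberg adjustment over all genes tested. The share called lower, 3.80%, was close to the background, and the share called higher, 2.53%, was above it but rests on 2 genes. At an unadjusted p under 0.05, 12 members (15.2%) were lower and 6 (7.59%) higher, against 11.7% and 8.79% of all genes. At an adjusted p under 0.01, 3 were lower and 0 higher, against 1.53% and 0.115% of all genes.

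ATPsynG encodes subunit g of the membrane part of ATP synthase and is at 2L:10975522-10976399 (minus strand, BDGP6.54, 3 exons). It had 244, 260 and 262 TMM-scaled CPM in the input and 80.4, 82.7 and 106 in the depleted libraries. The groups were far apart, and the difference was 2.85-fold (log2 fold change −1.51, SE 0.16, adjusted p = 9.2e-05 by edgeR). This was the largest change of any tested member in these libraries, and it passed the threshold in all 13 alternatives.

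ND-B22, the counterpart of the accessory complex I subunit NDUFB9, had 111, 127 and 98.9 CPM in the input and 55.6, 51.6 and 60.8 after depletion. Every depleted library was below every input library, a 2.01-fold difference (log2 −1.01, SE 0.16, adjusted p = 0.00236 by edgeR) that also passed in all 13 alternatives. ATPsynD, subunit d of the peripheral stalk, had 173, 236 and 149 before and 104, 84.9 and 89.5 after depletion. Input library 2 stood above the others, and the groups did not overlap (log2 −1.001, SE 0.18, adjusted p = 0.00734 by edgeR). Without depleted library 2 its adjusted p was 0.0637, and with spike-in scaling it was 0.0630.

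COX5B, a nuclear subunit of cytochrome oxidase, had 164, 161 and 166 CPM in the input and 268, 245 and 237 in the depleted libraries. The groups did not overlap, and the difference was 1.53-fold (log2 0.61, SE 0.14, adjusted p = 0.0270 by edgeR). Leaving out input library 1 or 2 or depleted library 1 or 2 ended the call (adjusted p from 0.0883 to 0.142), as did spike-in scaling (0.275). ATPsynCF6L, a paralog of a peripheral stalk subunit, was a low gene, with 21, 27 and 9 HTSeq counts in the input and 54, 33 and 28 in the depleted libraries. Scaled, these were 4.40, 4.34 and 2.47 against 10.5, 6.50 and 9.05, which did not overlap (log2 1.17, SE 0.30, adjusted p = 0.0419 by edgeR). That call was lost when any of the 6 libraries was left out (adjusted p from 0.0607 to 0.164), and without both libraries 3 (0.0657).

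**Figure D3:**
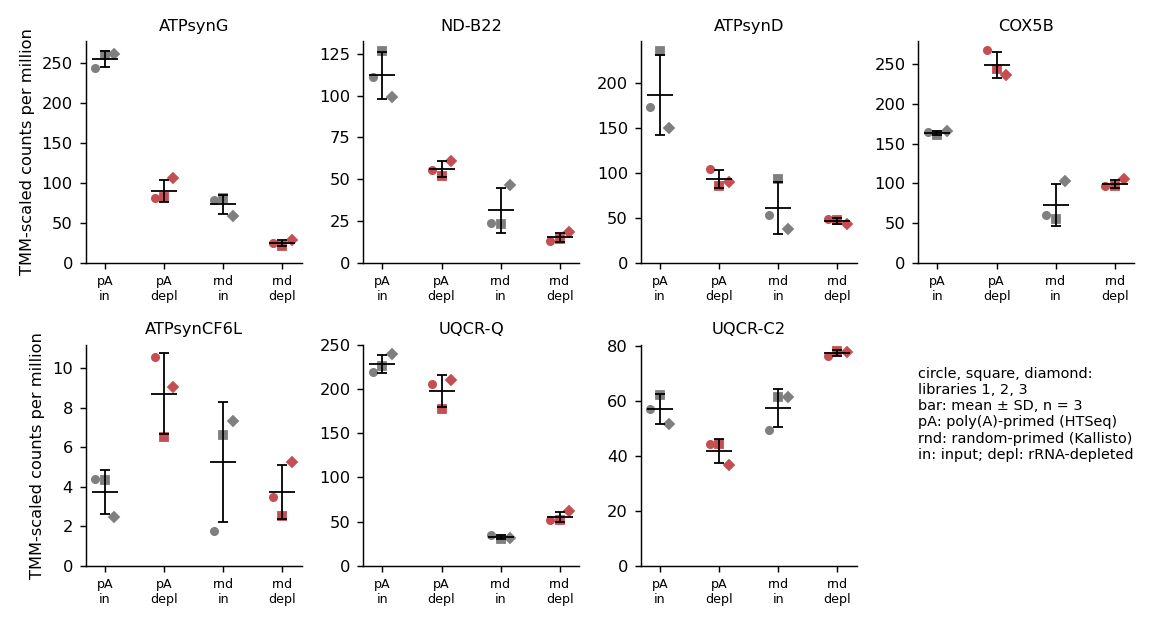
TMM-scaled CPM (y axis, from 0) of the 7 members called in at least 1 comparison, in poly(A)-primed (pA) and random-primed (rnd) input (in) and depleted (depl) libraries. Circles, squares and diamonds are libraries 1, 2 and 3, with mean and SD (n = 3) in black. Depleted ATPsynG lies below input in both primings, 80.4 to 106 against 244 to 262 in the poly(A)-primed libraries.

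The remaining members moved little. Of the 79 tested, 73 (92.4%) changed by less than 1.5-fold, against 82.9% of all genes. Their median log2 fold change was −0.08, against 0.02 over all genes, with 38 of 64 tested canonical members below 0. By complex, canonical medians were −0.17 in complex I, −0.06 in II, −0.14 in III, 0.10 in IV and −0.01 in V. Among the members at the extremes, ND-24L had a log2 fold change of 0.55 (SE 0.45, adjusted p = 0.518 by edgeR), with 9, 6 and 9 counts before and 15, 11 and 7 after depletion. Another 5 members were not tested. ND-51L1, ND-51L2, ND-B14.5AL and SdhAL had too few counts, and ND-MNLL had 0 HTSeq counts in all 6 libraries.

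The 2 ways of counting differed for this gene. ND-MNLL, an accessory subunit of complex I at X:7893053-7893798, has the same coordinates and strand as CG45089. How counts divide between these 2 genes is uncertain. By Kallisto ND-MNLL was given from 164 to 321 counts in the same 6 libraries and a level of 72.2 ± 6.98 per 1000000. ND-AGGG, another accessory subunit, had from 34 to 63 HTSeq counts against 973 to 2012 by Kallisto. Over the 83 members with HTSeq counts, the median ratio of Kallisto to HTSeq sums was 0.942.

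Without both libraries 3, an alternative added after the data were seen, 5 members (6.25%) were lower and 1 was higher, against 5.6% and 2.28% of all genes in that fit. The lower ones were ATPsynG, ND-B22, ATPsynD, ND-19 and ND-B17, and the higher one was COX5B.

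With the replicate number as a block, 16 members (20.2%) were lower and 8 (10.1%) higher, against 11.6% and 8.28% of all genes in the same fit. All 5 members called without the block were among them. ATPsynCF6L had an adjusted p of 0.00224 and COX5B of 8.7e-06 in edgeR. The lower members added were ND-19 (log2 −0.82, adjusted p = 0.000971 by edgeR), ND-39, ND-B12, ND-B14.5A, ND-B14.7, ND-B15, ND-B17, ND-B18 and ND-ASHI of complex I, UQCR-C2 of complex III, COX4 of complex IV, and ATPsynE and ATPsynO of complex V. The higher members added were ND-18, ND-B17.2 and ND-MLRQ of complex I, UQCR-14 of complex III, and COX6B and COX7A of complex IV. Other than ND-19, the members added ranged from −0.55 (ND-39) to 0.50 (ND-18) in log2.

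The same contrast was then made in the random-primed libraries, which do not depend on a poly(A) tail. Of 78 members tested, 1 was called lower and none higher, against 2.28% and 0.0643% of 10893 genes. At an unadjusted p under 0.05, 4 members (5.13%) were lower and 6 (7.69%) higher, against 7.61% and 3.64% of all genes, and DESeq2 also called 1 lower and 0 higher. At an adjusted p under 0.01 the counts were 1 lower and 0 higher, against 1.44% and 0.00918% of all genes. The member called was again ATPsynG. It had 78.6, 81.5 and 58.9 TMM-scaled CPM in the input, from 43, 49 and 24 estimated counts, and 24.5, 20.5 and 28.9 after depletion. Every depleted library was below every input library, a 3.004-fold difference (log2 −1.59, SE 0.21, adjusted p = 0.000963 by edgeR). It passed in all 12 alternatives, and the random-primed effect differed from the poly(A)-primed one by 0.07 in log2 (SE 0.24, adjusted p = 0.952 by edgeR).

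ND-B22 and ND-19 came next. ND-B22 had 23.8, 23.3 and 46.6 CPM before and 13.2, 13.9 and 18.2 after depletion, so the groups did not overlap but input library 3 stood high (log2 −0.997, SE 0.30, adjusted p = 0.159 by edgeR). ND-19, the counterpart of the accessory subunit NDUFA8, had 27.4, 16.6 and 19.6 before and 12.2, 11.4 and 10.7 after (log2 −0.89, SE 0.28, adjusted p = 0.175). In the poly(A)-primed libraries ND-19 had 24.1, 27.6 and 17.03 before and 9.96, 15.4 and 14.6 after, with a log2 fold change of −0.81 (SE 0.23, adjusted p = 0.0626 by edgeR). The ND-19 groups did not overlap in either priming, and neither gene passed the threshold in the random-primed libraries without the block. With it, ND-B22 had an adjusted p of 0.0198 and ND-19 of 0.0879 in edgeR.

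The other members called in the poly(A)-primed libraries were not called here. None of them was called in the test of the difference between primings either. That difference was 0.64 for ATPsynD, −0.02 for COX5B and −1.62 for ATPsynCF6L in log2 (adjusted p of 0.454, 0.993 and 0.385 by edgeR). ATPsynD had 53.0, 93.2 and 36.8 CPM before and 48.6, 47.1 and 42.3 after depletion, so the groups overlapped (log2 −0.45, SE 0.25, adjusted p = 0.560 by edgeR). COX5B had 60.3, 54.9 and 103 before and 96.6, 96.0 and 105 after, with input library 3 inside the depleted range (log2 0.49, SE 0.21, adjusted p = 0.396 by edgeR). ATPsynCF6L, which lies inside Con on the same strand, had 1.78, 6.63 and 7.34 before and 3.49, 2.53 and 5.23 after, and its groups also overlapped (log2 −0.48, SE 0.64, adjusted p = 0.845 by edgeR).

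At the upper end, UQCR-Q, a small subunit of complex III, had 34.7, 29.9 and 31.9 CPM in the input and 51.6, 51.6 and 62.1 in the depleted libraries. The groups did not overlap, and the log2 fold change of 0.77 (SE 0.20) had an adjusted p of 0.0767 in edgeR, and of 0.0120 with the replicate block. Cyt-c1L (log2 0.89, SE 0.73, adjusted p = 0.716 by edgeR) and ND-49L (log2 0.81, SE 0.68, adjusted p = 0.724) rested on 3 and 5 estimated counts over the 3 input libraries. Another 6 members were not tested, of which UQCR-11L was at 0 in all 3 input libraries. A count of 0 in 1580603 allows up to 1.90 CPM before scaling. The depleted libraries held 1.98, from 66 counts, barely above that limit, and no fold is given.

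Over the 78 tested members the median log2 fold change was 0.16, against 0.06 over all genes, and 53 of 64 tested canonical members lay above 0. With spike-in scaling, which moved the median of all genes to −0.10, the members' median was 0.02 and 37 of 64 lay above 0. The members stood 0.11 above all genes under the TMM scaling and 0.12 above under the spike-in scaling. A change of scaling moves all genes by nearly the same amount, so these 2 gaps are not independent. By complex, canonical medians were 0.11 in complex I, 0.26 in II, 0.21 in III, 0.36 in IV and 0.09 in V. Without both libraries 3, COX5B was called higher and ATPsynG lower, 1 of 80 each, against 0.236% and 3.3% of all genes in that fit. With the replicate block, ATPsynG and ND-B22 were called lower (2.56%) and UQCR-Q, COX7C, COX8, ATPsynbeta and ATPsynC higher (6.41%), against 5.43% and 2.44% of all genes. The higher members ranged from 0.22 (ATPsynC) to 0.76 (UQCR-Q) in log2.

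**Figure D4:**
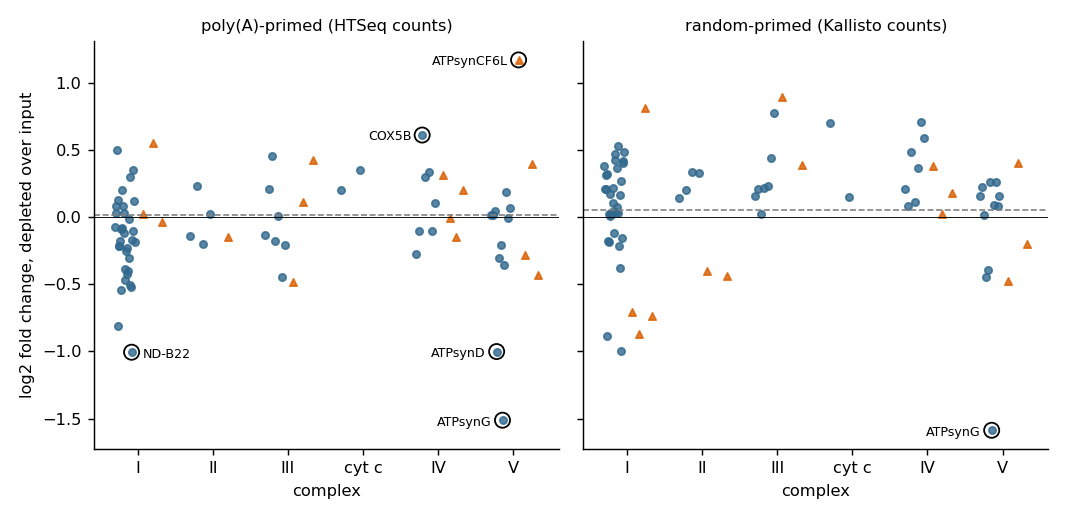
Log2 fold change of depleted over input (y axis) for each tested member by complex (x axis), in poly(A)-primed libraries (left) and random-primed libraries (right). Circles are canonical members, triangles are -L paralogs, black rings mark an adjusted p under 0.05 and the dashed line is the median of all genes tested (0.02 and 0.06). ATPsynG lies lowest in both panels, at −1.51 and −1.59.

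Difference between primings was tested in 1 model over the 12 libraries, on Kallisto counts, as random-primed minus poly(A)-primed effect. UQCR-Q and UQCR-C2, both of complex III, were called as more positive in the random-primed libraries, 2 of 81 members against 0.322% of 11175 genes, and none was called in the other direction, against 0.134%. At an unadjusted p under 0.05, 16 members (19.8%) were more positive and 1 more negative, against 9.17% and 2.60% of all genes. At an adjusted p under 0.01 no member was called in either direction, against 0.0268% and 0.0358%. All genes had a median of 0.16 in this fit, and the members 0.30, so changes are read relative to that shift. With RLE scaling the medians were 0.00 and 0.14, and neither gene was called (adjusted p of 0.129 and 0.130).

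UQCR-Q differed by 1.11 in log2 (SE 0.22, adjusted p = 0.0377 by edgeR). Its poly(A)-primed values were 219, 227 and 240 CPM before and 206, 178 and 210 after depletion, slightly lower, while the random-primed values given above were higher. UQCR-C2, a core protein, differed by 1.02 (SE 0.21, adjusted p = 0.0445 by edgeR). It had 57.2, 62.4 and 51.6 before and 44.5, 44.3 and 36.8 after in poly(A)-primed libraries, against 49.4, 61.5 and 61.4 before and 76.4, 78.2 and 77.9 after in random-primed ones. In neither priming alone was UQCR-C2 called without the block, and with it UQCR-C2 was called lower in the poly(A)-primed libraries (adjusted p = 0.00492 by edgeR). Without the block both calls were weak. When each of the 12 libraries was left out in turn, UQCR-Q stayed under the threshold in 2 cases (adjusted p from 0.0474 to 0.237) and UQCR-C2 in 0 (0.0517 to 0.286). Without the 4 libraries numbered 3, both passed, together with ND-B12, 3 of 82 members (3.66%) against 1.08% of all genes, and none passed in the other direction, against 0.266%. With the replicate block, UQCR-Q had an adjusted p of 0.000154 and UQCR-C2 of 0.000307 in edgeR. In that fit 12 members (14.8%) were more positive, against 5.66% of all genes, and none was more negative, against 1.12%. The others were ND-B12, ND-B14, ND-B15, ND-39 and ND-SGDH of complex I, COX4, COX7C and COX8 of complex IV, and ATPsynF and ATPsynO of complex V.

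The members at the other extremes of this comparison were paralogs with few counts. Cyt-c1L differed by 1.53 (SE 0.80, adjusted p = 0.474), ATPsynCF6L by −1.62 (SE 0.72, adjusted p = 0.385), ND-51L1 by −1.38 (SE 0.80, adjusted p = 0.527) and ND-24L by −1.27 (SE 0.85, adjusted p = 0.587), all by edgeR. UQCR-11L had the most positive fitted value, but this depends on a prior count since its random-primed input was at 0, and no value is given. With the fall of ATPsynG, its paralog's share moved. ATPsynGL went from 5.20%, 5.06% and 5.78% to 11.2%, 7.04% and 13.3% of the pair's poly(A)-primed counts, while the log2 fold change of ATPsynGL itself was −0.28 (adjusted p = 0.605 by edgeR).

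Synthetic spike-in RNAs, added before depletion, gave the amount remaining without any assumption on the typical gene. For each complex, counts per spike-in count in a depleted library were taken as a percentage of those in the input library of the same number. In poly(A)-primed libraries the 84 members together kept 91.0%, 96.0% and 88.3%, and all protein-coding genes 79.1%, 88.8% and 83.6%. In random-primed libraries the members kept 102%, 101% and 97.9%, and protein-coding genes 89.7%, 89.1% and 89.2%. As sums, members were above protein-coding genes at each number in both primings. Gene by gene with spike-in scaling, the poly(A)-primed median log2 fold change was −0.13 for members and −0.04 for all genes. There, 45 of 64 tested canonical members lay below 0. In the random-primed libraries these medians were 0.02 and −0.10. In the same libraries, 3 of the 9 genes of wandering larvae, glue and larval serum proteins among them, were called lower in the poly(A)-primed fit and 2 in the random-primed fit. Their part in the difference between the sums was not tested.

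By complex, poly(A)-primed values were 88.9% ± 2.86 for I, 94.0% ± 2.77 for II, 96.6% ± 4.44 for III, 104% ± 6.94 for IV and 84.3% ± 4.22 for V (SD, n = 3). Among complexes I to V, complex V, which holds ATPsynG and ATPsynD, was the lowest and complex IV, which holds COX5B, the highest. The part of these genes in the sums was not tested. Random-primed values were 96.1% ± 3.49, 103% ± 2.83, 109% ± 5.74, 111% ± 5.13 and 97.5% ± 5.32 in the same order. Ranked by their means, complexes next to each other in rank overlapped within their SD in each priming, while IV lay above V in both. Cytochrome c was unstable in the poly(A)-primed libraries, at 68.2%, 232% and 107%, with Cyt-c-p counts of 87, 59 and 95 before and 73, 135 and 83 after depletion. The 19 paralogs kept 104% ± 4.23 in poly(A)-primed and 91.5% ± 14.2 in random-primed libraries.

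**Figure D5:**
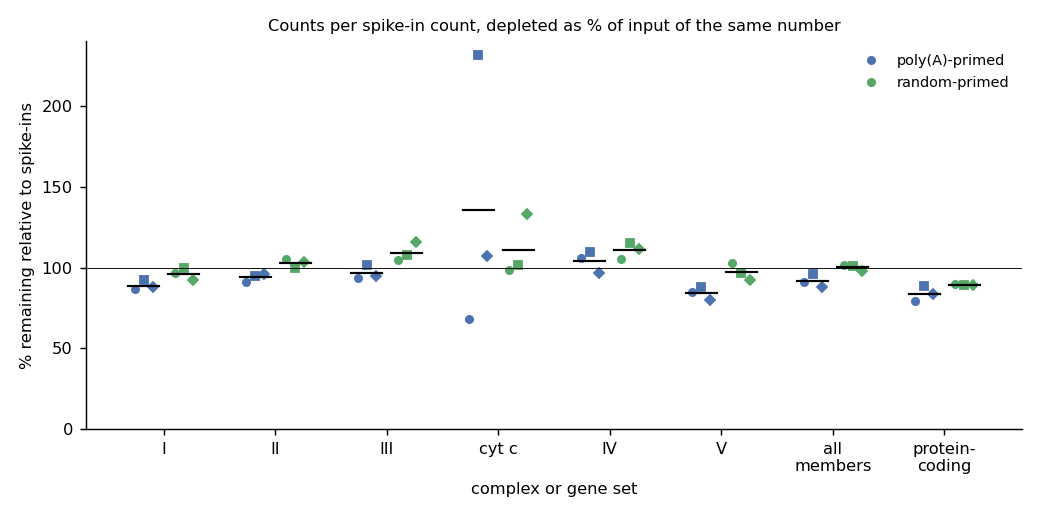
Counts per spike-in count in depleted libraries as a percentage of the input library of the same number (y axis, from 0), for each complex, all members and all protein-coding genes (x axis). Circles, squares and diamonds are numbers 1, 2 and 3, blue is poly(A)-primed, green is random-primed and black bars are means. Members together lie at 91.8% and 100.3%, above protein-coding genes at 83.8% and 89.3%.

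As a share of all counts outside rRNA, the members held 0.906%, 0.938% and 0.901% before depletion and 1.04%, 1.01% and 0.949% after it in the poly(A)-primed libraries, by HTSeq. In the random-primed libraries they held 0.435%, 0.441% and 0.423% before and 0.509%, 0.514% and 0.485% after. The groups did not overlap in either priming. These shares also depend on the counts of all other genes. Scaled by TMM over all 12 libraries, canonical members summed by Kallisto to 11848, 12546 and 11926 CPM in the poly(A)-primed input. After depletion they summed to 12320, 11326 and 11239, so these groups overlapped. In the random-primed libraries the sums were 3292, 3260 and 3299 before and 4074, 4019 and 3986 after.

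Other genes of mitochondrial energy metabolism were read from the same fits. Subunits of the same complexes with other symbols (RFeSP, blw, levy, cype, ox and sun) gave 1 lower and 0 higher of 6 in the poly(A)-primed libraries. RFeSP, the Rieske iron-sulphur protein of complex III, was the one lower (log2 −0.80, SE 0.15, adjusted p = 0.00976 by edgeR). In the random-primed libraries none of the 6 was called, and RFeSP was at 0.02. The difference between primings was not called for RFeSP (0.94 in log2, adjusted p = 0.0734 by edgeR). By level per length levy, a complex IV subunit, was at 383 and sun, the epsilon subunit of ATP synthase, at 319, within the range of the canonical members.

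The 13 protein-coding genes of mitochondrial DNA spanned a wide range of levels. The highest were mt:CoI at 11149 and mt:CoIII at 8133 per 1000000, far above any canonical member. In contrast, mt:ND2 (81.6), mt:ND4L (47.9) and mt:ND6 (43.4) were below the canonical median of 88.7. None of the 13 was called in either priming. Their median log2 fold change was 0.11 (from −0.90 for mt:ND4L to 0.999 for mt:ND3) in the poly(A)-primed and 0.27 (from −0.50 for mt:CoIII to 0.86 for mt:ATPase8) in the random-primed libraries.

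Of 14 genes of the tricarboxylic acid cycle and pyruvate dehydrogenase, 1 was lower in the poly(A)-primed libraries and none in the random-primed ones. It was Mdh2, the mitochondrial malate dehydrogenase (log2 −1.04, SE 0.15, adjusted p = 0.00161 by edgeR), at −0.20 (adjusted p = 0.781) in the random-primed libraries. The difference between primings was not called for Mdh2 (0.94 in log2, adjusted p = 0.124 by edgeR). Medians over the 14 genes were −0.03 in the poly(A)-primed and −0.01 in the random-primed libraries. ScsbetaA and Scsalpha1, subunits of succinyl-CoA synthetase, were the highest of this list at 201 and 197 per 1000000. Among 6 regulators of mitochondrial gene expression (srl, ewg, Ets97D, TFAM, mtTFB2 and mtRNApol), none of the 5 or 6 tested was called in either priming, with medians of −0.19 and 0.02. Of the tissue lists, 9 and 8 of 14 testis genes and all 10 muscle genes were tested in the 2 primings and none was called, with medians of 0.09 and 0.21 for testis and 0.26 and −0.01 for muscle. The genes of wandering larvae had medians of −0.52 and 0.01, with Sgs3, a salivary glue protein, at −2.44 (adjusted p = 2.7e-05 by edgeR) and −2.93.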

How the data were processed

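The authors trimmed the reads, assigned them with Kallisto, using strand, to transcripts, spike-ins and introns (Ensembl 99, BDGP6.28), and deposited estimated counts for 12 libraries. They deposited whole-number counts of uniquely mapped reads (STAR, HTSeq) for the 6 poly(A)-primed libraries, and deposited TPM of the spliced part, used in 1 alternative. A deposited table of the authors' own fold changes and p-values was not used. HTSeq summary lines held 7.81% to 9.88% of reads and were left out.

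Here, edgeR 4.0.16 (quasi-likelihood, TMM, filterByExpr) was run over all genes, on HTSeq counts for poly(A)-primed and on rounded estimated counts without rRNA for random-primed libraries and for the interaction. Spike-ins were left out of the fits, and rRNA genes out of the numbers of genes called. DESeq2 1.42.0, other scalings, filters and left-out libraries were alternatives. Gene coordinates, lengths and exons came from Ensembl release 115 (BDGP6.54). Members and lists were chosen with earlier results of these data known. Named genes were every called member, the 3 most positive and 3 most negative of each comparison, the highest and lowest canonical member of each complex and all paralogs. SE was the absolute log2 fold change over the square root of the F statistic. Fits were tested on simulated data. The study states that every RNA sample was split into an input and a depleted library in both primings, and equal library numbers were taken as the same RNA sample, which the labels do not spell out. Deviations of same-numbered input and depleted libraries correlated across genes at 0.04, 0.30 and 0.53 (poly(A)-primed) and 0.05, 0.23 and 0.31 (random-primed). Input 1 correlated better with depleted 2 (0.13 and 0.08) than with depleted 1. Depleted 1 correlated better with input 2 (0.28 and 0.10) than with input 1. The matching of numbers 1 and 2 is therefore uncertain, and so are the blocked fits and the percent remaining that use it. The main fits had no block, since the study names no covariate for its own fit, and blocked values are given where they changed a call. Pools were separate collections of larvae. Levels are relative, and intervals between libraries cover 3 values a group.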

Additional observations from a re-analysis of the deposited data

Results flagged for a closer look

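The depletion effect of UQCR-Q and UQCR-C2, both of complex III, differed between primings by a test of the difference itself, by 1.11 and 1.02 in log2 (random-primed minus poly(A)-primed). In both genes every depleted library lay below every input library in the poly(A)-primed libraries and above every input library in the random-primed ones. The random-primed input libraries held 19, 18 and 13 estimated counts of UQCR-Q and 27, 37 and 25 of UQCR-C2, and the part of that depth in the result was not tested.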

How the results depend on the processing

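The decreases of ATPsynG (both primings) and ND-B22 (poly(A)-primed) kept direction and side of the threshold under every alternative. For the other member counts this was not so, and the cause was not tested. In the poly(A)-primed libraries, 2 members were higher and 3 lower. The higher count was 1 by DESeq2, 0 with spike-in scaling, 0 at an adjusted p under 0.01 and 0 to 1 when a library was left out. The lower count was 2 to 4 when a library was left out. Without libraries 3, chosen after seeing the data, 1 was higher and 5 lower. In the random-primed libraries (0 higher, 1 lower), 1 was higher without the count filter and 1 without libraries 3. The count of members more positive in random-primed libraries (2) was 0 with RLE scaling, 4 without the filter, and 0 to 1 with a library left out. ND-24L (−1.27 in that comparison) ranged from −1.70 to 0.027 with a library left out, and turned sign without random-primed input library 2. Shares of all genes called were not counted for DESeq2, other scalings, the unfiltered fits or single libraries left out. Member counts under those alternatives therefore describe only the stability of the calls.

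With the replicate number as a block, 8 members were higher and 16 lower in the poly(A)-primed, 5 higher and 2 lower in the random-primed libraries, and 12 more positive in the difference. These stand in the report beside the shares of all genes, which also rose with the block.

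With the deposited TPM, median levels were 82.4 for complex I, 150 for III and 301 for IV; with intronic counts added, III was 102, and with a library left out 97.2 to 106. With the median over spike-ins, percent remaining was 93.4 for complex I, 98.7 for II, 102 for III, 88.6 for V, 96.5 for all members and 109 for the paralogs in poly(A)-primed libraries, and 98.1 for all members in random-primed ones. Random-primed input depth limits all single-gene values there.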
